A study of Mus musculus with 12 samples.

Results

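The regions described here are stretches of the mouse genome that were open in prenatal projection neurons of the neocortex, with deep-layer neurons at E13.5 as the exception. They were chosen from ATAC-seq peak lists, in which a transposase marks accessible DNA. The peaks of all 12 lists were merged into 498516 regions, and a region counted as open in a list when a peak of that list covered any of it. Selected were the regions open in both lists of deep-layer E16.5, of deep-layer E18.5 and of upper-layer E17.5, 6 defining lists in all, and in neither deep-layer E13.5 list. This gave 1577 regions, 3.54% of the 44566 regions open in all 6 defining lists. That percentage and the open calls in the 8 prenatal lists follow from the selection and are given as a description, with no test. The selection set no condition on the postnatal lists, but their peaks helped to set the extent of the merged regions. With regions built from the 8 prenatal lists alone it held 1584.

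The neurons came from CD1 mice. The deep-layer groups were sorted for GFP from mice with the Golli-GFP transgene, on E13.5, E16.5 or E18.5. For the upper-layer groups, a Cdk5r promoter-GFP plasmid was brought into the neocortex by electroporation in utero on E15.5, and GFP-positive cells were sorted on E17.5, on P1 or on P5. There were 2 replicates in every group and 12 lists in all, and a replicate pooled 2 to 8 embryos. A promoter active in other cells would bring those cells into a sort, and in such bulk material a region open in fewer cells and a region less open in every cell cannot be told apart. The sorted cells were not checked against marker genes here. The labels do not tell if a group's replicates were separate litters, so spreads and p-values refer to these lists and may be technical.

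Projection neurons of the neocortex are born in order, the deep layers before the upper layers. Deep-layer neurons send axons mainly to targets below the cortex, and upper-layer neurons mainly connect cortical areas. Accessible regions away from gene starts often act as enhancers, and many open or close while a neuron leaves the cell cycle, migrates and matures. E13.5 falls within the period in which deep-layer neurons are born, so the neurons sorted then were recently born. Positions below are on mm9, counted from 1. The regions are named by position alone, since an annotation and a genome of that build were not used here, and genes and sequences in them are not analysed here.

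The lists held 96452 to 164508 peaks. Depth is unknown, and the number of peaks is at most a rough stand-in for it. The E13.5 lists were among the longest, with 129992 and 153892 peaks, against 96452 to 126828 in the other 4 deep-layer lists. The regions were thus called closed in the longer lists of their population. The upper-layer E17.5 replicates stood apart: 93.4% of replicate 2's peaks overlapped a peak of replicate 1, against 80.7% for the next highest pair, and the peak names of both lists carried the library name of replicate 1. The postnatal replicates shared much less, with a base-pair Jaccard index of 0.272 at P1 and 0.254 at P5 against 0.476 to 0.641 for the prenatal replicate pairs. With a single list standing for upper-layer E17.5, the selection held 1689 regions without replicate 1, the longer list, and 2409 without replicate 2.

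Few of the regions open in all 6 defining lists were closed in both E13.5 lists, and the number was of the order seen for other stages. The same selection for the other prenatal stages gave 683 regions closed only at deep-layer E16.5 (1.54% of the regions open in the other 6 lists), 1678 closed only at deep-layer E18.5 (3.52%) and 2446 closed only at upper-layer E17.5 (5.47%). The share for E13.5 was thus close to that for E18.5 and between those for the other groups. These shares count regions closed in both lists of a stage, and replicate pairs differed in how much they shared. Regions open in exactly 1 list of the stage made up 5.71% (E13.5), 7.14% (E16.5), 11.7% (E18.5) and 4.13% (E17.5), another order of the stages. The shares therefore give no ranking of stages. A further 2545 regions were open in the 6 defining lists and in exactly 1 E13.5 list, 1950 of them in replicate 2, the longer list, and 595 in replicate 1. Where only 1 E13.5 list was open, its peaks were narrow, with a median width of 297 bp in replicate 1 and 358 bp in replicate 2, against 618 and 671 bp at regions open in all 8 prenatal lists. The selection depended on the longer list: without E13.5 replicate 2 it held 3530 regions, and without replicate 1 it held 2172. Without deep-layer E18.5 replicate 1, the shortest list, it held 2387.

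Most regions closed in deep-layer neurons at E13.5 and open later were not open in both upper-layer E17.5 lists, and so lie outside the selection. In deep-layer lists alone, 6135 regions were closed at E13.5 and open in every later list. Of these, 25.7% were open in both upper-layer E17.5 lists and form the selection, 933 (15.2%) were open in 1 and 3625 (59.1%) in neither. For comparison, 90.4% of the 44738 regions open in all 6 deep-layer lists were open in both upper-layer E17.5 lists. The 1577 regions also made up 11.3% of the 13979 regions open in both E18.5 and neither E13.5 list.

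The regions had narrower peaks than regions open throughout the prenatal lists, in every defining list. Peak width is the only measure of a peak's size in these lists, and it was taken as the widest peak of a list in the region. The median over the 6 defining lists ran from 208.5 to 1379 bp among the 1577 regions, with a median of 521.5 bp, against 737 bp for the 40444 regions open in all 8 prenatal lists and 510.5 bp for those open in 1 E13.5 list. Narrow peaks were not particular to the selection. Over the 6 lists that had to be open, the median was 440.5 bp for regions closed only at deep-layer E16.5. It was 472.5 bp for those closed only at deep-layer E18.5 and 507.75 bp for those closed only at upper-layer E17.5. By list, the median width in the selection was 507 and 467 bp at deep-layer E16.5, 448 and 666 bp at E18.5, and 616 and 455 bp at upper-layer E17.5. These were 57.6% to 77.6% of the medians at regions open in all 8 prenatal lists, lowest for upper-layer E17.5 replicate 2. The E18.5 replicates, like the E17.5 replicates, differed from each other by more than any E16.5 median did from either of them, so no order of stages can be read from them. Within regions, the mean E18.5 peak was wider than the mean E16.5 peak in 1036 of 1577 (65.7%), near the 70.7% at regions open in all 8 lists. The mean upper-layer E17.5 peak was wider than the mean over the 4 later deep-layer lists in 837 (53.1%), against 68.4% at regions open in all 8 lists.

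**Figure D1:**
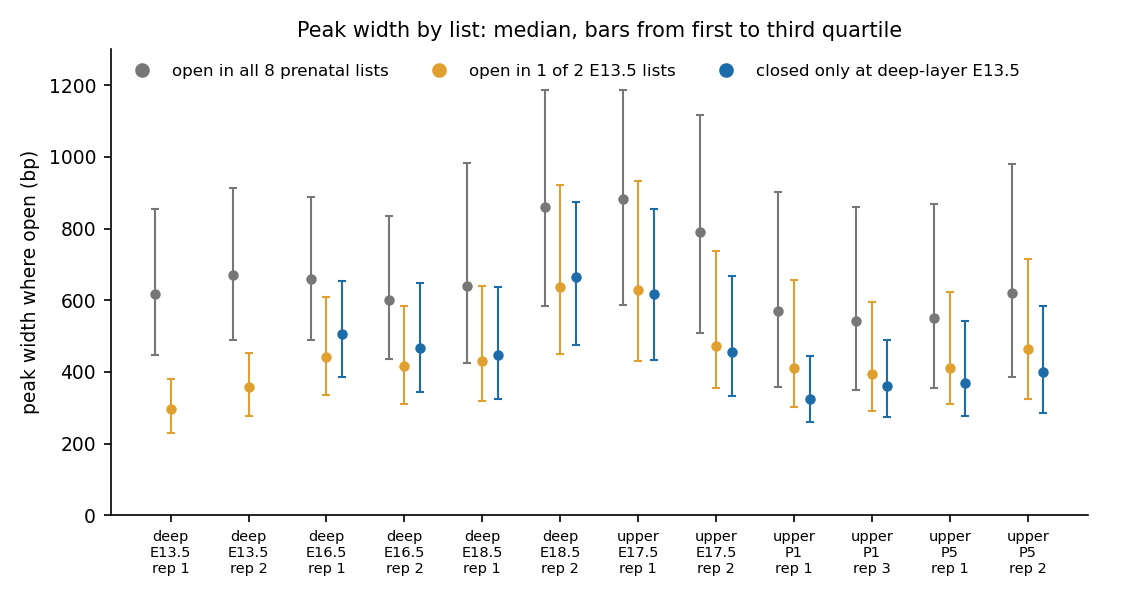
Median peak width in base pairs (y axis) in each of the 12 lists (x axis) for regions closed only at deep-layer E13.5, regions open in 1 of 2 E13.5 lists and regions open in all 8 prenatal lists, counting the regions open in that list, with bars from the first to the third quartile. The E13.5-closed regions have no value at E13.5, by selection, and lower medians than the always open regions in each of the other 10 lists, such as 448 against 639 bp in deep-layer E18.5 replicate 1.

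The 10 regions with the widest peaks show how far regions of one selection differed. The widest, at chr2:113194930-113196748, had peaks of 1409 and 1349 bp at E16.5 and 1457 and 1760 bp at E18.5, but of only 375 and 400 bp at upper-layer E17.5. It was open in 1 postnatal list, P5 replicate 2, with a peak of 276 bp. The deep-layer peaks were thus all wide and the upper-layer ones all narrow. The ninth, at chr2:97017518-97018904, had the same form, with 1096 to 1387 bp in the deep-layer lists, 438 and 228 bp at E17.5 and no postnatal peak. Another form was seen at chr6:83051158-83052657, with peaks of 394 and 331 bp at E16.5, 1279 and 1284 bp at E18.5 and 1458 and 1498 bp at upper-layer E17.5. This region was open in all 4 postnatal lists, with widths of 662 to 1384 bp, and its narrowest peaks were those of E16.5. At chr2:77797399-77801868, a region of 4470 bp and the longest of the selection, peaks of 436 and 365 bp at E16.5 were followed by 2267 and 895 bp at E18.5 and by 1511 to 2733 bp after birth.

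Further wide regions lay on chromosome 18. The region at chr18:59199061-59201122 had widths of 1259 and 1968 bp at E16.5, 1757 and 1457 bp at E18.5 and 1052 and 865 bp at E17.5, and was open in both P1 lists and neither P5 list. A pair of others, at chr18:30286378-30288537 and chr18:30299220-30301431, lay 10682 bp apart. The first had 1183 to 1748 bp over the 6 defining lists and was open in all 4 postnatal lists at 264 to 538 bp. The second had 1043 to 1594 bp in the deep-layer lists, 903 and 318 bp at E17.5, and was open in P1 replicate 3 and P5 replicate 2. All 4 deep-layer peaks were wide at both, while at E17.5 the second was narrower than the first in both lists.

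Among all 1577 regions, strong imbalance between the populations was uncommon in either direction. In 91 regions (5.77%) the mean upper-layer E17.5 width was at most 0.5 times the deep-layer mean, and in 117 (7.42%) it was at least 2 times that mean. At regions open in all 8 prenatal lists the corresponding shares were 1.76% and 6.21%. Widths come from the defining lists, so these shares are a description.

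The E13.5-closed regions lay in neighbourhoods that held E13.5 peaks. The nearest E13.5 peak was 5 to 158553 bp from the region's edge, with a median of 3206 bp and quartiles of 1288 and 7972 bp. In 156 regions (9.89%) it was within 500 bp, and in 303 (19.2%) it was more than 10 kb away. For regions closed only at another stage, the median distance to the nearest peak of that stage was 3161 bp (deep-layer E16.5), 5861 bp (deep-layer E18.5) and 4041 bp (upper-layer E17.5). Asking for no E13.5 peak within 500 bp left 1421 regions.

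**Figure D2:**
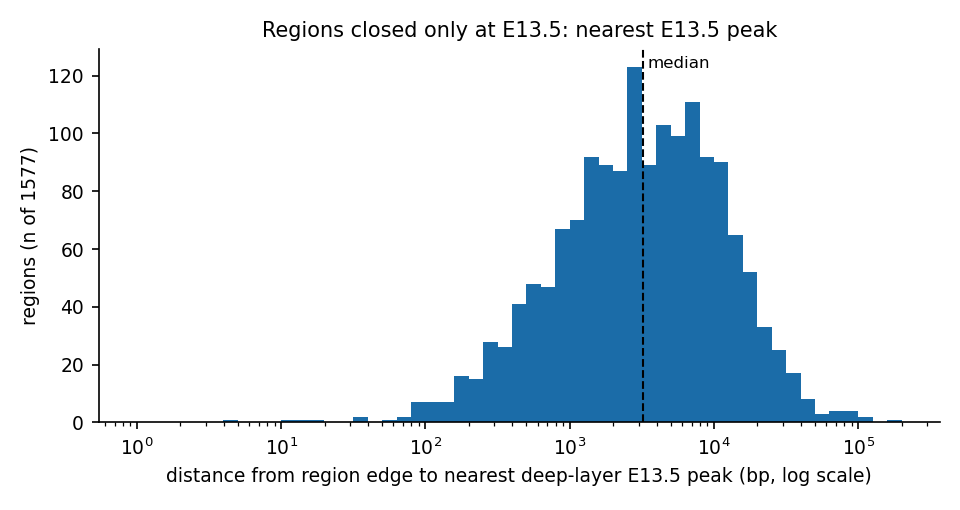
Number of E13.5-closed regions (y axis) by the distance in base pairs, on a log axis, from the region's edge to the nearest peak of either deep-layer E13.5 list. Most regions lie between 500 and 10000 bp from an E13.5 peak, with the median at 3206 bp (dashed line).

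Just inside the selection were 6 regions with an E13.5 peak at most 50 bp away. The closest were chr17:43308871-43310120 at 5 bp, chr4:34021363-34022169 at 11 bp and chr2:30574404-30575001 at 13 bp. Their peaks were modest, with medians over the defining lists of 526, 434 and 455.5 bp, and for them the closed call rests on a few bases. Just outside, the widest regions with 1 open E13.5 list were chr1:193541104-193543609 (a peak of 399 bp in E13.5 replicate 2, median 1829 bp over the defining lists), chr5:34064104-34066690 (687 bp in replicate 2, median 1605 bp) and chr18:60783075-60785247 (389 bp in replicate 1, median 1554.5 bp). Those E13.5 peaks were narrow beside the E18.5 and upper-layer E17.5 peaks at the same place, which were 1498 to 2527 bp wide. They were not all narrow beside the E16.5 peaks. These were 274 and 421 bp at the chr1 region, 284 and 265 bp at the chr5 region and 577 and 565 bp at the chr18 region. At the other end, the most isolated regions were chr11:92332925-92333858, chrX:21528339-21528815 and chr12:108896421-108897483, with the nearest E13.5 peak 158553, 121789 and 109986 bp away. Their peaks were 200 to 952 bp wide, and of their 12 possible postnatal calls 1 was open.

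The flanks of the regions held E13.5 peaks in numbers near those around other prenatal regions. Within 50 kb on each side, and per 100000 peaks of the list, the E13.5 lists held 5.12 and 5.03 peaks around these regions, and the 6 defining lists held 5.19 to 5.52. Around all regions open in the 6 defining lists the E13.5 lists held 4.94 and 5.05 peaks, so one replicate was higher around the selection and the other lower. The postnatal lists differed. They held 3.88 and 4.01 (P1) and 3.98 and 4.33 (P5) peaks around the selection, against 4.96 to 5.45 around all regions open in the defining lists. The mean difference was -1.16 ± 0.181 (SD, n = 4 lists), lower in 4 of 4 lists (p = 0.13, exact sign-flip permutation test, two-sided). With 4 lists this is the smallest p the test can give, so no comparison over the postnatal lists can pass 0.05. Low postnatal flank counts were not particular to the selection: the means were 3.68 ± 0.0651 around regions closed only at deep-layer E18.5 and 4.10 ± 0.221 around those closed only at upper-layer E17.5 (SD, n = 4), but 6.46 ± 0.343 around those closed only at E16.5.

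**Figure D3:**
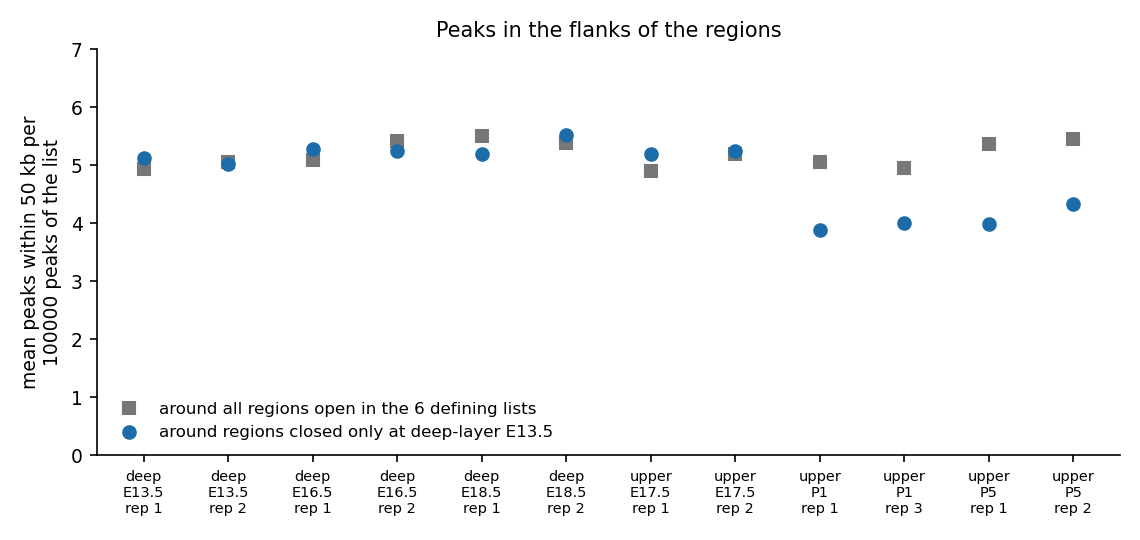
Mean number of peaks within 50 kb of a region's edges per 100000 peaks of the list (y axis) in each list (x axis), around the E13.5-closed regions and around all regions open in the 6 defining lists. The sets lie together in the 8 prenatal lists and part in the 4 postnatal lists, where the E13.5-closed regions hold 3.88 to 4.33 and the larger set 4.96 to 5.45.

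The regions were spread over the genome. Besides 1 on an unplaced sequence, every autosome and the X held some, from 2.43% of the regions open in the defining lists on chromosome 11 (44 of 1808) and 2.51% on chromosome 7 (56 of 2229) to 4.27% on chromosome 5 (105 of 2459) and 5.15% on chromosome 18 (88 of 1709). They seldom lay side by side: the median distance to the next region of the selection was 440666 bp, and 127 (8.05%) had another within 50 kb. The corresponding shares were 6.88%, 8.88% and 15.3% for the regions closed only at E16.5, E18.5 and E17.5, sets of other sizes. The nearest pairs were chr6:66248422-66250010 and chr6:66250118-66250882, 107 bp apart, chr5:85061615-85062447 and chr5:85063092-85064176, 644 bp apart, and chr1:43600105-43601512 and chr1:43602239-43603442, 726 bp apart, named after their values were seen. Of the fixed 1 Mb windows that held any, 716 held 1 region and 7 held the highest number, 5. These 7 tied windows began at chr1:99000001, chr2:58000001, chr9:84000001, chr12:59000001, chr14:103000001, chr18:74000001 and chrX:74000001. In the window on X, 5 of the 10 regions open in the defining lists belonged to the selection, on chromosome 9 it was 5 of 13, and on chromosome 14 5 of 40.

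After birth, most of these regions were closed in upper-layer neurons, so closure was not restricted to E13.5. P1 replicate 1 was open in 328 of the 1577 (20.8%, 95% Wilson interval 18.9% to 22.9%), and 51.1% of all regions open in the defining lists were open there. P1 replicate 3 was open in 573 (36.3%, 34.0% to 38.7%), against 63.4%. P5 replicate 1 was open in 394 (25%, 22.9% to 27.2%), against 53.2%, and P5 replicate 2 in 589 (37.3%, 35.0% to 39.8%), against 62.6%. Each list was lower for the selection than for the larger set, and within each stage one replicate was well above the other. The intervals cover counting error only.

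Replicates of a stage differed by more than the stage means did. The mean was 28.6% ± 11.0 at P1 and 31.2% ± 8.74 at P5 (SD, n = 2 each), a difference of 2.60 percentage points that was smaller than the spread between replicates (p = 0.667, exact permutation test, two-sided, smallest possible 0.33). The sign of this difference turned to -5.10 without P1 replicate 1 and to -3.45 without P5 replicate 2, and it was 10.3 without P1 replicate 3 and 8.77 without P5 replicate 1. The peak names of P1 replicate 3 number it 2. Paired by the numbers in the peak names, a choice made after seeing the data, P5 was higher by 4.19 percentage points in pair 1 and by 1.01 in pair 2 (exact sign-flip p = 0.5, the smallest that 2 pairs allow), and nothing in the labels says that a number marks shared material. Over the 4 lists the mean share was 29.9% ± 8.24 (SD, n = 4).

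No postnatal list was open in 739 of the regions (46.9%), against 23.6% of all regions open in the defining lists. All 4 were open in 173 (11.0%), against 39.9% there. These 173 were open in all 10 lists other than those of E13.5. At least 1 list of every stage other than E13.5 was open in 463 regions (29.4%, against 58.5% in the larger set), so by the rule that a stage is closed when both of its lists are, E13.5 was the sole closed stage for 463. Between these ends, 304 regions were open in 1 postnatal list (13.9% in the larger set), 195 in 2 (10.9%) and 166 in 3 (11.7%). Both P1 lists were open in 260 (16.5%, against 46.9%) and both P5 lists in 323 (20.5%, against 48.5%). Stage-specific patterns after birth were rare: 24 regions (1.52%) were open in both P1 and neither P5 list, against 1.69%, and 47 (2.98%) in both P5 and neither P1 list, against 2.24%. Both of these shares lay near the background.

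Regions open in more postnatal lists had wider prenatal peaks. The median over the defining lists was 495.5 bp for regions open in no postnatal list, 518.25 bp in 1, 528.5 bp in 2, 595.25 bp in 3 and 610 bp in all 4. Where open after birth, their peaks were narrower than at regions open in all 8 prenatal lists, with medians of 324.5 bp against 571 bp in P1 replicate 1, 360 against 541 bp in P1 replicate 3, 370.5 against 551 bp in P5 replicate 1 and 400 against 621 bp in P5 replicate 2. Narrow postnatal peaks were not particular to the selection. The medians per list were 347 to 402 bp at regions closed only at E16.5, 280.5 to 315 bp for E18.5 and 297 to 341 bp for E17.5. At regions with 1 open E13.5 list they were 394 to 464 bp.

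Named regions illustrate the postnatal patterns. Among those open in all 4 lists, chr2:3957019-3958368 had 503 to 1303 bp before birth and 590, 1059, 1293 and 1226 bp in P1 replicates 1 and 3 and P5 replicates 1 and 2, while chr8:59934610-59937077 went from 721 to 1883 bp before birth to 277 to 392 bp after. The region at chr2:3957019-3958368 thus kept wide peaks in 3 of 4 postnatal lists, and the one on chromosome 8 in none. Of those open in both P5 and neither P1 list, chr10:9322085-9323860 had peaks of 549 and 1134 bp at P5, and chr6:66063883-66065559 of 405 and 209 bp. Both had wide E18.5 peaks, of 1262 to 1496 bp. Of those open in both P1 and neither P5 list, chr12:63026064-63027204 had peaks of 594 and 699 bp at P1, and chr12:37296888-37297896 of 315 and 775 bp. Their prenatal peaks were 554 to 1092 bp wide. The widest with no postnatal peak, beside the region on chromosome 2 above, were chr13:115664751-115666033, with 933 to 1242 bp in the defining lists, and chr6:21393521-21394992, with 351 to 1472 bp. The first was wide in all 6 lists, and the second was narrow in replicate 1 of both E16.5 and E18.5.

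Compared with regions open in all 8 prenatal lists, the E13.5-closed regions were less often open after birth in every list. The difference in share within a list was -29.7 ± 2.27 percentage points (SD, n = 4 lists), lower in 4 of 4 lists, with an adjusted p of 0.13 (exact sign-flip permutation test, two-sided, Benjamini-Hochberg over the 4 planned comparisons, raw p = 0.13). Regions with 1 open E13.5 list, which had like peak widths, lay between these sets, at 35.0% to 50.5% per list. The difference of the selection from them was -12.5 ± 2.18 percentage points (SD, n = 4), lower in 4 of 4 lists (exact sign-flip p = 0.13), a comparison chosen once the data were known. Without E13.5 replicate 2 the difference from the always open regions was -20.2. Without E17.5 replicate 1 or 2 it was -30.5 and -32.8. A lower share than in the always open regions was not particular to the selection. The mean over the 4 lists was 59.6% for the always open regions. It was 39.2%, 11.8% and 12.9% for regions closed only at E16.5, E18.5 and E17.5. The always open regions differ by the selection itself, since they had to be open in both E13.5 lists as well.

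Set beside regions closed only at another prenatal stage, the regions were open after birth more often than those closed only at deep-layer E18.5 or upper-layer E17.5. The differences were 18.1 ± 6.60 and 16.9 ± 6.66 percentage points (SD, n = 4), higher in 4 of 4 lists each (exact sign-flip, adjusted p = 0.13 for both). Per list, 8.82% to 17.2% of the regions closed only at E18.5 were open, and 6.66% to 19.1% of those closed only at E17.5. These sets differ by the selection itself. The E13.5-closed regions had to be open at E18.5 and upper-layer E17.5, and each of the other sets closed at E18.5 or at E17.5. All 4 postnatal lists were of later upper-layer neurons, and the sets were not matched for peak width. How far this gives the differences was not tested. The comparison with regions closed only at deep-layer E16.5 gave a smaller difference, of -9.34 ± 5.99 percentage points, lower in 4 of 4 lists (exact sign-flip, adjusted p = 0.13), but with a difference of only -1.29 in P1 replicate 3. The value and sign depended on single lists. It turned to 2.05 without deep-layer E16.5 replicate 1 and to 3.45 without E18.5 replicate 1, and was -0.165 (exact sign-flip p = 1) without E13.5 replicate 2, -4.30 without E18.5 replicate 2, -15.8 without E13.5 replicate 1 and -21.9 without E16.5 replicate 2. Without E13.5 replicate 2 the differences from the regions closed only at E18.5 and at E17.5 were larger, at 27.5 and 26.6.

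**Figure D4:**
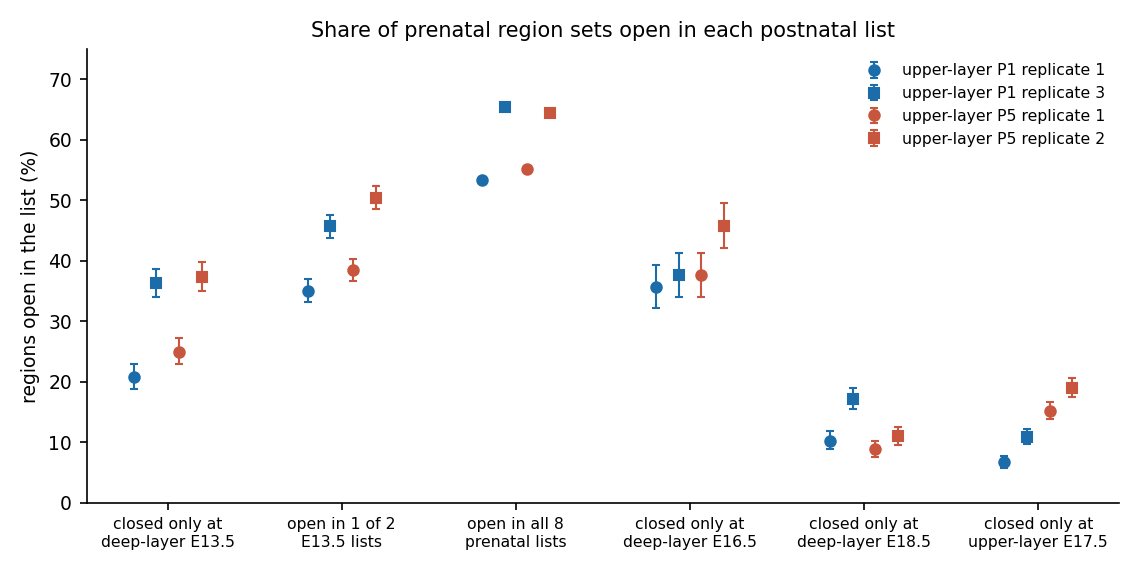
Percent of each region set open in each postnatal list (y axis), with 95% Wilson intervals, for the E13.5-closed regions, the regions open in 1 or both E13.5 lists and those closed only at another prenatal stage (x axis). The E13.5-closed regions lie at 20.8% to 37.3%, below the always open regions at 53.3% to 65.5% and above the regions closed only at E18.5 or E17.5 list by list.

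Peak width moved with the postnatal share, and the comparison was repeated within classes of width, a division chosen after seeing the data. Below 400 bp of median width the E13.5-closed regions (330) had a mean share of 25.2% ± 6.38 open per postnatal list and the always open regions (2480) one of 34.1% ± 6.31 (SD, n = 4 lists). From 400 to under 600 bp the shares were 25.5% ± 7.80 (685 regions) and 41.9% ± 7.43. From 600 to under 800 bp they were 36.3% ± 8.81 (373 regions) and 53.1% ± 7.87, and at 800 bp or more 41.0% ± 12.7 (189 regions) and 77.9% ± 4.96. The E13.5-closed regions were lower in 4 of 4 lists in each class (exact sign-flip p = 0.13 each). The differences were -16.9 to -8.92 percentage points below 800 bp and -36.9 at 800 bp or more. That last class has no upper bound and is not matched for width. Median widths reached 1379 bp in the E13.5-closed and 6489.5 bp in the always open regions. With equal weight to the 4 classes, the last included, the difference was -19.7 percentage points, smaller than without regard to width. The E13.5-closed regions were also lower than regions with 1 open E13.5 list in each class, with differences of -20.7 to -9.33 percentage points and in 4 of 4 lists.

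**Figure D5:**
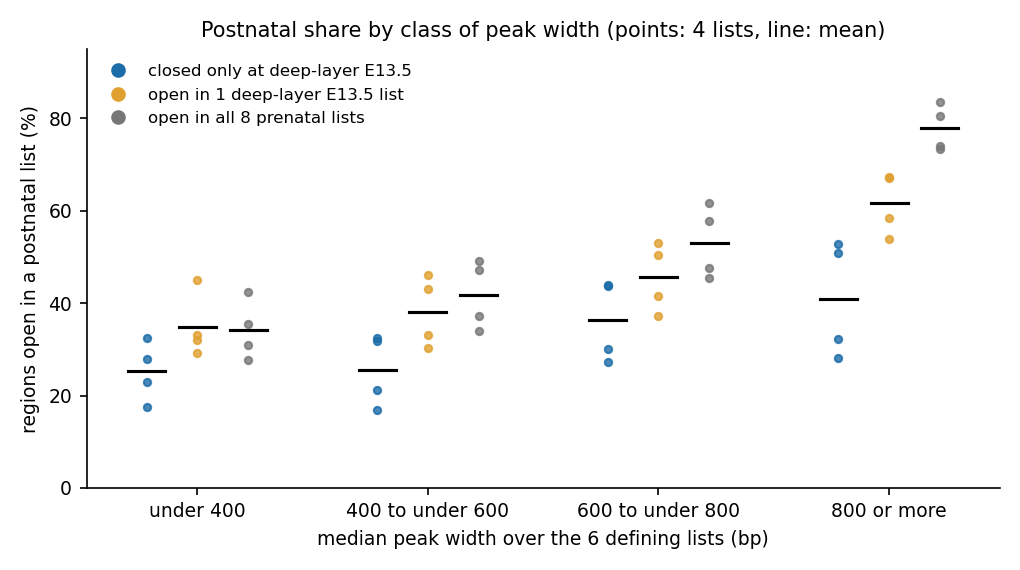
Percent of regions open in a postnatal list (y axis) by class of median peak width over the 6 defining lists (x axis), with a point for each of 4 lists and a line at their mean. In each class the mean of the E13.5-closed regions is the lowest, from 25.2% to 41.0%. The gap to the always open regions is widest at 800 bp or more, a class with no upper bound in which the sets are not matched for width.

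Other properties of the regions moved less with the postnatal share. By distance to the nearest E13.5 peak, the mean share was 30.3% ± 5.52 within 500 bp, 29.5% ± 8.94 up to 2 kb, 29.4% ± 8.39 up to 10 kb and 31.2% ± 8.51 beyond (SD, n = 4), differences within the spread of the lists. Regions with wider peaks at upper-layer E17.5 than in the deep-layer lists were open in 32.4% and the others in 27.0%, higher in 4 of 4 lists by 1.88 to 9.64 percentage points (exact sign-flip p = 0.13). Regions wider at E18.5 than at E16.5 were open in 31.9% and those wider at E16.5 in 26.0%, higher in 3 of 4 lists (exact sign-flip p = 0.25). At regions open in all 8 prenatal lists these differences were 10.9 and 22.2 percentage points, higher in 4 of 4 lists each. The distance to the nearest region open in all 12 lists had a median of 69520 bp for the selection, against 39609 bp for regions with 1 open E13.5 list and 35572, 77065.5 and 63862.5 bp for those closed only at E16.5, E18.5 and E17.5.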

How the data were processed

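Per the labels, chromatin of sorted neurons was transposed and sequenced, and the authors deposited 1 list of peaks per sample with positions in base pairs and no score, height or p-value. Per the submitters' processing notes, cutadapt, Bowtie2, Picard 1.14.0 and MACS2 2.1.0 were named, with build mm9. Their roles, read shifts, thresholds and read totals are not stated there. Chromosome 1 peaks reached 197184229, and 845 peaks started after the final gene that a GRCm38 table places there, so that table was not used for positions. Planned results on genes and motifs are not analysed here.

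Regions, open calls and the selection are as given above. The regions and lists were chosen with earlier results of these data known. Named regions were the 10 with the largest median peak width over the defining lists, the 5 widest of each postnatal pattern, of which some are printed, the 3 nearest to and farthest from an E13.5 peak, the fullest 1 Mb windows and the 3 widest with 1 open E13.5 list. Widths, flanks, width classes and the set with 1 open E13.5 list were compared as choices made after seeing the data. Shares were tested over lists by exact sign-flip or permutation tests, and the code was tested on simulated lists with planted regions. Alternatives were other region building, open and closed calls, equal list length, autosomes only and each list left out. Python 3.11.15, numpy 2.4.6, pandas 2.3.3, scipy 1.17.1 and matplotlib 3.10.9 were used.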

Additional observations from a re-analysis of the deposited data

How the results depend on the processing

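The 1577 regions became 1231 to 1693 under 6 alternatives that kept all lists (regions from the 8 prenatal lists, 500 bp windows, 0.5 of the region covered, no peak within 500 bp, an equal number of the widest peaks, autosomes only), and 1576 to 3530 with a list left out. Their mean postnatal share was 20.3% with 0.5 of the region covered, 29.8% to 32.9% under the other 5, and 25.3% to 39.0% with a list left out. The difference from regions open in all 8 prenatal lists ran from -32.8 to -19.7, that from regions closed only at E18.5 from 12.6 to 27.5 and that from those closed only at E17.5 from 11.4 to 26.6 percentage points over all alternatives. The difference from regions closed only at E16.5 ran from -21.9 to 3.45 with a list left out, and P5 minus P1 from -5.10 to 10.3. The cause of either change of sign was not tested. No comparison passed 0.05 under any alternative, since 4 lists or fewer cannot reach it. The labels give no pairing of P1 with P5 lists: they share only replicate number 1, and nothing there says that a number marks shared material. With a replicate block by the numbers in the peak names, which give P1 replicate 3 the number 2, P5 minus P1 was 2.60 (exact sign-flip p = 0.5). The lists give no reads, so a weak region can be closed through depth.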
